A study of Drosophila melanogaster with 8 samples.

Results

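Programmed cell death in Drosophila embryos is controlled by a small set of genes, and 10 of them were followed here in esc mutant and control embryos. They were rpr, hid, grim, skl, Dronc, Dcp-1, Drice, Diap1, Dark and Dredd, chosen by name from a table of 17321 genes. All 10 were present, and all 10 were among the 10547 genes that averaged 0.5 RPKM or more and were tested. The study compared whole embryos of stages 14 and 15 that lacked the Polycomb gene esc both maternally and zygotically (esc) with embryos of the wild-type strain Oregon R (OrgR). The esc allele is not named in the sources used here. At least 200 embryos were pooled for RNA extraction, and each genotype had 4 libraries in 2 sets, titled 1-1, 1-2, 2-1 and 2-2, where the first number is the set. Values per library are given below in that order. Levels are in RPKM, read numbers scaled to gene length and to the depth of the library, so that levels of different genes can be compared.

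The products of rpr, hid, grim and skl are antagonists of the inhibitor of apoptosis protein Diap1, a ubiquitin ligase that holds caspases in check. When Diap1 is displaced, the initiator caspase Dronc is activated on the adaptor Dark in the apoptosome and cleaves the effector caspases Drice and Dcp-1. Dredd is a further initiator-type caspase, best known from the Imd immune pathway. Transcription of the antagonist genes is the main switch for developmental death in the embryo, where it shapes the head and removes neuroblasts, neurons and glia. The esc protein belongs to PRC2, the Polycomb complex that places methyl groups on lysine 27 of histone H3, and the region upstream of rpr has been described as gaining this repressive mark as embryos age. The dead cells are engulfed by hemocytes and glia.

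In esc embryos the antagonist genes rpr and skl rose about 2-fold, whereas Diap1, Dronc, Dark, Drice, Dcp-1 and Dredd all fell, by the largest amount for Dronc. The transcripts of grim were higher in every esc library without passing the test, and hid showed no change that could be told from the spread of its sets. Of the 10 genes, 2 rose, 6 fell and 2 did not pass (limma on log2(RPKM + 1), adjusted p below 0.05 over all tested genes). Of all 10547 tested genes, 20.9% rose, 31.6% fell and 52.5% changed in either direction. A rise in 2 of 10 is therefore near the background share, while 6 of 10 is above that for falls. The count of falls depended on the processing. It was 2 under median-of-ratios scaling, where 9.71% of all genes fell. It was 1 with the set number as a replicate block, where 8.52% did. The median log2 change of the 10 genes was -0.46, and that of all tested genes was -0.18. The shift of -0.18 depends on how libraries are scaled, and was 0.02 under median-of-ratios scaling, so each change is also given below relative to the median gene.

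**Figure D1:**
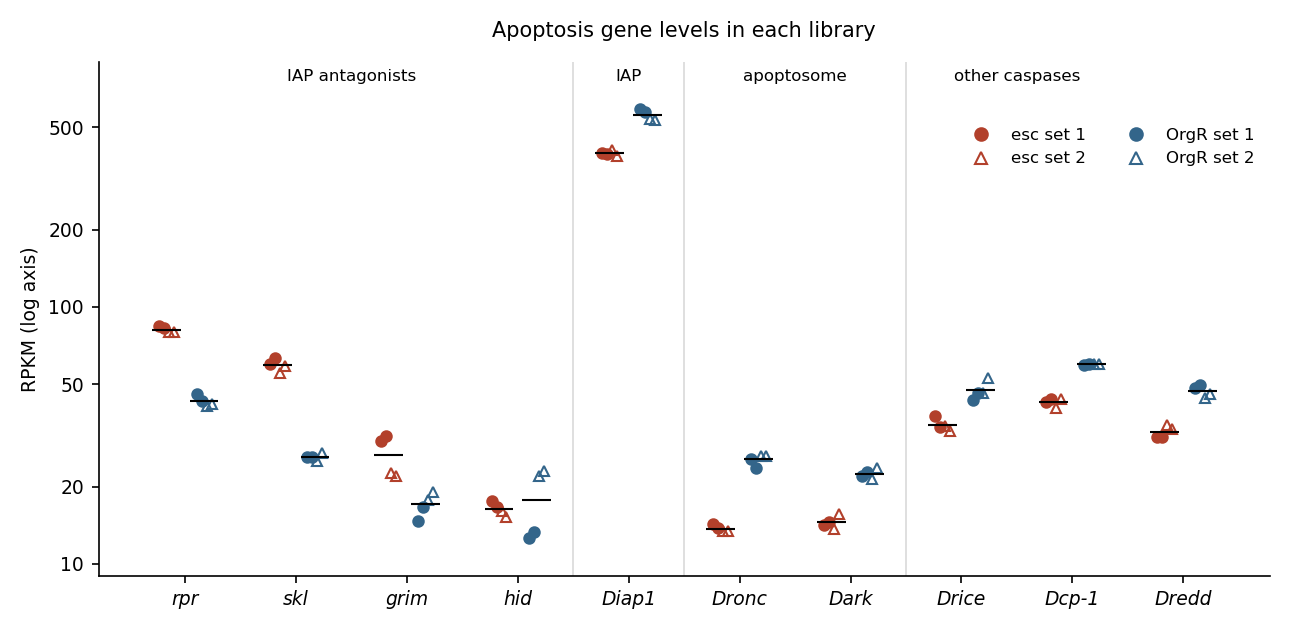
RPKM (log axis) of the 10 apoptosis genes in each of the 8 libraries, grouped by role, with esc in red at the left of each pair and OrgR in blue at the right. Circles are set 1, triangles set 2 and black lines genotype means. The esc points lie above all OrgR points for rpr, skl and grim, below them for the 6 genes at the right, and among them for hid.

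The depth of the libraries, the level of esc and markers of several tissues are given here to describe the pools. Relative sequencing depth ran from 84.4% to 100% of the deepest library in esc and from 86.0% to 98.2% in OrgR. The level of esc fell to 3.80 ± 0.32 RPKM in esc embryos, against 11.7 ± 0.19 RPKM in OrgR (SD, n = 2 sets each). A list of 10 late cuticle genes, which the epidermis switches on as it differentiates, summed to between 5010 and 10700 RPKM in esc libraries and to between 16 and 20.7 RPKM in OrgR libraries, and 9 of the 10 rose and none fell by limma, also at an unadjusted p below 0.05. Of 10 neuroblast markers 7 fell and none rose by limma, also at an unadjusted p below 0.05, with sums from 210 to 238 RPKM in esc and from 387 to 415 RPKM in OrgR. Of 9 tested neuronal markers out of 10, 1 rose (Syn) and none fell, although 1 was lower at an unadjusted p below 0.05, with sums from 147 to 218 RPKM in esc and from 201 to 262 RPKM in OrgR. Of 10 glial markers 1 rose and 5 fell, where 20.9% and 31.6% of all tested genes did. Under median-of-ratios scaling 2 fell, where 9.71% of all genes did, and 1 with the set number as a replicate block, where 8.52% did. Sums of the glial markers ran from 535 to 612 RPKM in esc and from 674 to 785 RPKM in OrgR. Of 16 tested hemocyte markers out of 18, 4 rose and 7 fell, with sums from 1250 to 1290 RPKM in esc and from 1320 to 1390 RPKM in OrgR. The part of pool age and cell composition in the results below was not tested. In whole embryos, fewer cells of a type and less RNA per cell cannot be told apart.

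The antagonist gene rpr, whose expression alone is enough to kill cells, had 84.1, 82.8, 79.8 and 79.8 RPKM in esc libraries, against 45.8, 43.2, 41.1 and 41.8 RPKM in OrgR libraries. Every esc library was above every OrgR library, and the libraries of a set differed by at most 0.08 on the log2 scale. The mean was 81.6 ± 2.6 RPKM in esc and 43.0 ± 2.2 RPKM in OrgR (SD, n = 2 sets each), a ratio of 1.90. The log2 change was 0.91 ± 0.09 (SE; limma adjusted p = 0.00401), or 1.09 relative to the median gene. It passed in all 23 alternative settings, with log2 changes from 0.86 to 1.14 and adjusted p-values up to 0.0274.

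The neighbouring gene skl (sickle), a further antagonist, changed most of the 10. It had 59.9, 63.3, 55.4 and 59.1 RPKM in esc libraries, against 26.1, 26.1, 25.2 and 27.0 RPKM in OrgR libraries, again without overlap. The mean was 59.4 ± 3.1 RPKM in esc and 26.1 ± 0.0074 RPKM in OrgR (SD, n = 2 sets each), a ratio of 2.28. The log2 change was 1.16 ± 0.09 (limma adjusted p = 0.00262), or 1.34 relative to the median gene, and it passed in all 23 alternatives, with changes from 1.10 to 1.38.

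For grim the libraries did not overlap, but the sets within a genotype differed. Its levels were 30.0, 31.4, 22.5 and 21.9 RPKM in esc libraries, against 14.7, 16.6, 17.8 and 19.1 RPKM in OrgR libraries. The first esc set stood above the second, while the first OrgR set stood below the second. The mean was 26.5 ± 6.0 RPKM in esc and 17.1 ± 2.0 RPKM in OrgR (SD, n = 2 sets each), and the log2 change was 0.59 ± 0.19 (limma adjusted p = 0.0542), or 0.78 relative to the median gene. The adjusted p was below 0.05 in 9 of 23 alternatives, among them median-of-ratios scaling (log2 change 0.82, adjusted p = 0.0295), and over all alternatives it ran from 0.00313 to 0.178. The value of grim is uncertain for a further reason, since 75.9% of its exonic bases are shared with the antisense RNA gene CR45974 and the noncoding gene CR45975, and the libraries were unstranded. Those genes were listed at the lowest value of the table, 0.001 RPKM, in all 8 libraries.

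The result for hid rested on the OrgR sets, which stood far apart. This gene, also known as Wrinkled and the antagonist that survival signals through the EGF receptor pathway hold down, had 17.6, 16.7, 16.1 and 15.2 RPKM in esc libraries, against 12.6, 13.3, 21.9 and 23.0 RPKM in OrgR libraries. The esc libraries fell between the OrgR sets. The mean was 16.4 ± 1.0 RPKM in esc and 17.7 ± 6.7 RPKM in OrgR (SD, n = 2 sets each). Its log2 change was -0.06 (95% interval -0.77 to 0.65, limma adjusted p = 0.866), an interval that leaves room for a fall or a rise of the size seen for Dark or grim. Without OrgR set 1 the log2 change was -0.43, and without OrgR set 2 it was 0.32, and neither passed (adjusted p = 0.0902 and 0.173). On the log2 scale, set 2 minus set 1 of hid was -0.12 in esc and 0.75 in OrgR. For the 9 tested neuronal markers this difference ran from -0.80 to -0.17 in esc and from -0.12 to 0.93 in OrgR, highest for elav, and their part in the hid values was not tested.

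**Figure D2:**
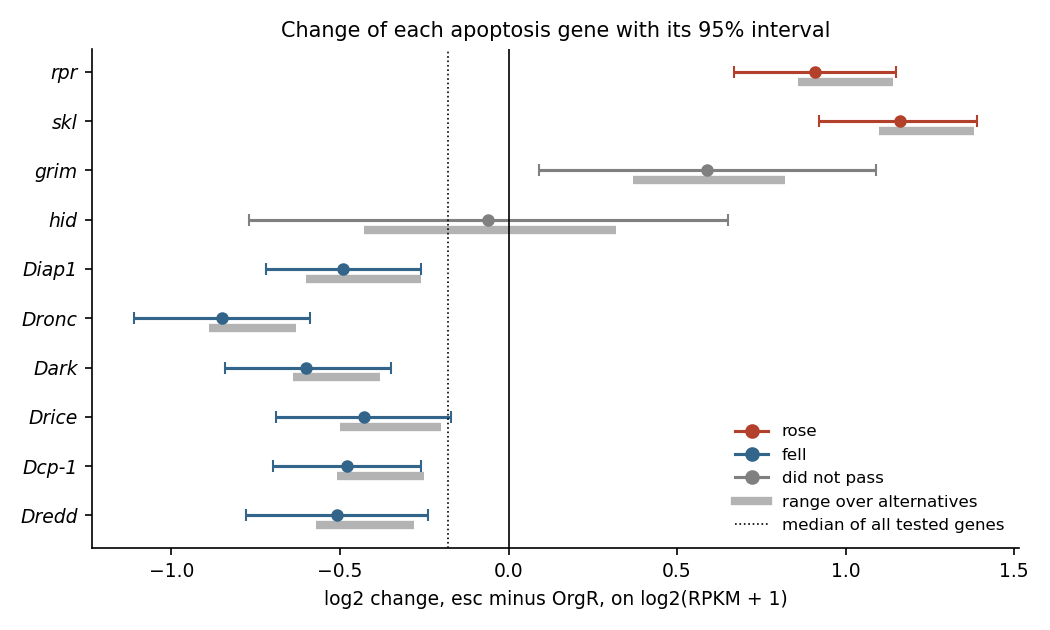
Log2 change of each gene (esc minus OrgR, on log2(RPKM + 1)) with its 95% interval from limma, and below it in grey the range over 23 alternative settings. The dotted line is the median of all tested genes, -0.18. The intervals of rpr and skl lie wholly above 0 and those of the 6 falling genes wholly below it, while that of hid spans 0 from -0.77 to 0.65.

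The inhibitor Diap1 (thread) was the most abundant of the 10 in both genotypes. It had 397, 395, 407 and 387 RPKM in esc libraries, against 589, 572, 538 and 533 RPKM in OrgR libraries. All esc libraries were lower, and the esc sets lay closer together than the OrgR sets. The mean was 397 ± 1.1 RPKM in esc and 558 ± 32 RPKM in OrgR (SD, n = 2 sets each), a ratio of 0.711. The log2 change was -0.49 ± 0.09 (limma adjusted p = 0.0131), or -0.31 relative to the median gene. An antisense gene covers 11.0% of its exonic bases.

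Among the caspase genes, the initiator Dronc fell furthest. It had 14.3, 13.8, 13.4 and 13.4 RPKM in esc libraries, against 25.7, 23.7, 26.3 and 26.4 RPKM in OrgR libraries. The groups were well separated, at 13.7 ± 0.45 RPKM in esc and 25.5 ± 1.2 RPKM in OrgR (SD, n = 2 sets each), a ratio of 0.537. The log2 change was -0.85 ± 0.10 (limma adjusted p = 0.00564), or -0.67 relative to the median gene. Dronc was the only one of the 6 falling genes to pass in all 23 alternatives, with changes from -0.89 to -0.63 and adjusted p-values up to 0.0388.

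Dark, the Apaf-1 homologue that assembles Dronc into the apoptosome, had 14.2, 14.5, 13.7 and 15.6 RPKM in esc libraries, against 21.9, 22.7, 21.4 and 23.6 RPKM in OrgR libraries. All esc libraries were lower. The log2 change was -0.60 ± 0.09 (limma adjusted p = 0.0101), or -0.41 relative to the median gene. Exons of Dark share 56.9% of their bases with the antisense gene CR44390, itself listed at 0.001 RPKM in every library, so its value is uncertain.

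The effector caspases and Dredd fell by similar amounts. Drice, the principal effector caspase, had 37.5, 34.1, 34.4 and 32.9 RPKM in esc libraries, against 43.6, 46.4, 46.2 and 52.9 RPKM in OrgR libraries (log2 change -0.43 ± 0.10, limma adjusted p = 0.0233). The related effector Dcp-1 had 42.5, 43.9, 40.6 and 43.7 RPKM in esc libraries, against 59.5, 59.8, 60.1 and 60.1 RPKM in OrgR libraries (log2 change -0.48 ± 0.08, limma adjusted p = 0.0126). None of the groups overlapped. Dcp-1 shares 13.7% of its exonic bases with pita on the other strand, which also fell (31.2 RPKM in esc, 42.3 RPKM in OrgR). Dredd had 31.2, 31.1, 34.6 and 33.6 RPKM in esc libraries, against 48.5, 49.6, 44.1 and 45.8 RPKM in OrgR libraries (log2 change -0.51 ± 0.10, limma adjusted p = 0.0172). Relative to the median gene, the log2 changes were -0.25 for Drice, -0.30 for Dcp-1 and -0.33 for Dredd.

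The calls of the smaller falls depended on the scaling, the block and the number of sets. Under median-of-ratios scaling Diap1, Drice, Dcp-1 and Dredd no longer passed (log2 changes from -0.28 to -0.20, limma adjusted p from 0.0769 to 0.159), which left 2 of 10 genes that fell, Dronc and Dark, where 9.71% of all genes did. Under the same scaling 3 of 10 rose, grim being the addition, where 24.9% of all genes did. With the set number as a replicate block, 1 of the 10 fell, Dronc, where 8.52% of all genes did, and 2 rose, where 14.9% did. When any set was left out, Dronc was again the 1 gene that fell, and 2 genes rose, or 3 without esc set 2. The sizes of the falls moved little there, since with the block or with 1 set left out the log2 change of Dcp-1 stayed from -0.50 to -0.46, that of Dark from -0.61 to -0.59, that of Diap1 from -0.55 to -0.43, that of Dredd from -0.57 to -0.45 and that of Drice from -0.50 to -0.37. The log2 changes of all 6 genes stayed negative in all 23 alternatives. The 4 esc libraries were below the 4 OrgR libraries for 6 of the 10 genes and above them for 3, where 45.3% and 26.2% of all tested genes were so placed. In either direction, 71.5% of all tested genes had libraries that did not overlap.

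Ratios of genes within a library do not depend on its scaling. The summed level of rpr, hid, grim and skl was 192, 194, 174 and 176 RPKM in esc libraries, against 99.2, 99.2, 106 and 111 RPKM in OrgR libraries. Divided by the level of Diap1, it came to 0.483, 0.492, 0.426 and 0.455 in esc libraries, against 0.169, 0.173, 0.197 and 0.208 in OrgR libraries. The mean ratio was thus 2.48 times higher in esc, and 2.55 times higher when grim was left out. By contrast, Diap1 divided by the sum of the 4 caspase genes ranged from 3.13 to 3.31 in esc and from 2.88 to 3.32 in OrgR, so these overlapped. Diap1 over Dronc alone ranged from 27.8 to 30.5 in esc and from 20.2 to 24.1 in OrgR. These ratios are given as descriptions, without a test; an exact permutation test of a single value in 2 sets against 2 has a smallest two-sided p of 0.333.

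**Figure D3:**
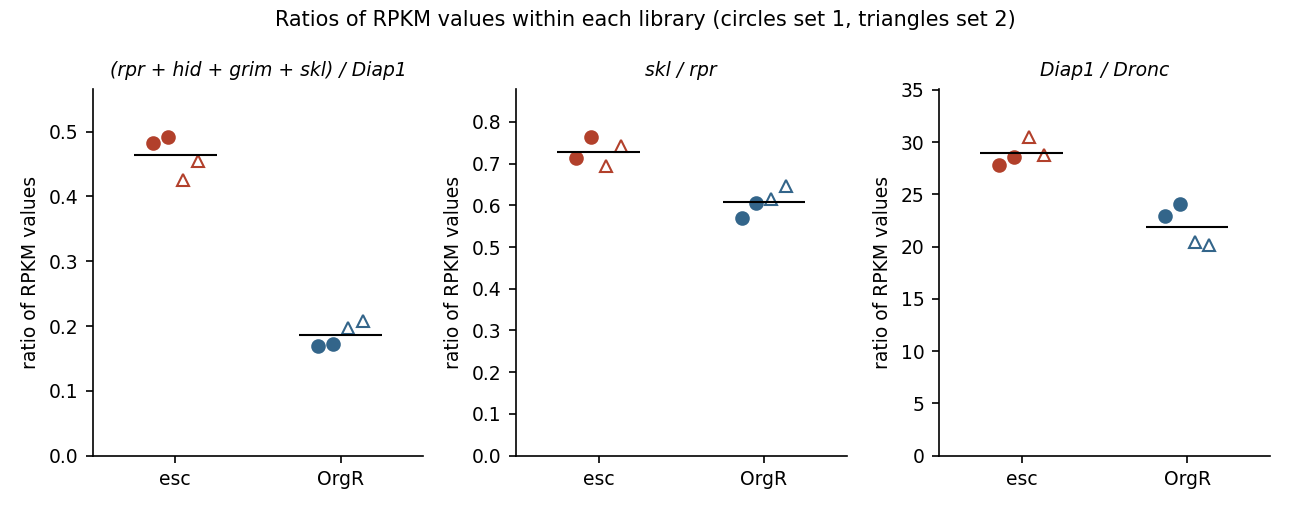
Ratios of RPKM values within each library, esc at the left and OrgR at the right of each panel, with black lines at the means. The antagonist sum over Diap1 is between 0.426 and 0.492 in esc and between 0.169 and 0.208 in OrgR, and neither skl over rpr nor Diap1 over Dronc overlaps between the genotypes.

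The order of the 10 levels changed accordingly. Diap1 ranked first in both genotypes. In esc, rpr ranked 2 and skl 3, ahead of Dcp-1, while in OrgR they ranked 5 and 6 behind Dcp-1, Drice and Dredd. Dronc ranked last in esc and 7 in OrgR. Among neighbours in the order, the library ranges of Drice and Dredd overlapped in both genotypes. In esc, those of Dredd and grim, hid and Dark, and Dark and Dronc overlapped too. In OrgR, those of Dredd and rpr, skl and Dronc, Dark and hid, and hid and grim did. Of the summed antagonist level, rpr made up 42.7% to 45.9% in esc and 37.7% to 46.2% in OrgR, skl 31.3% to 33.6% in esc and 23.8% to 26.3% in OrgR, and hid 8.58% to 9.24% in esc and 12.7% to 20.8% in OrgR. The ratio of skl to rpr ran from 0.694 to 0.764 in esc and from 0.569 to 0.646 in OrgR.

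The 4 antagonist genes lie together on the minus strand of chromosome arm 3L, over 272 kb of dm6. From low to high coordinates they are hid (18167745 to 18185641), grim (18302719 to 18304417), rpr (18397535 to 18398435) and skl (18438561 to 18439942). The gaps between them are 117, 93.1 and 40.1 kb. Elsewhere, Dronc (9968479 to 9971002) and Diap1 (16038410 to 16051034) are also on 3L, Drice is on 3R (29799658 to 29801584), Dcp-1 (23551313 to 23553547) and Dark (17020027 to 17026703) are on 2R, and Dredd is on X (633622 to 635545).

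Within the cluster, the change was largest at skl and next at rpr, and the 3 genes next below hid in coordinate rose more than any antagonist. Of 30 other genes in the table within 50 kb of the cluster or inside it, 9 were tested, 6 rose, 3 did not pass and none fell by limma, also at an unadjusted p below 0.05. Over all tested genes 20.9% rose. The 3 largest log2 changes were those of the next genes below hid. CG13699 (18154897 to 18162522) had 7.43, 6.93, 5.56 and 5.91 RPKM in esc libraries, against 0.223, 0.243, 0.122 and 0.046 RPKM in OrgR libraries (log2 change 2.68 ± 0.15, limma adjusted p = 0.0014). CG7330 (18148923 to 18153807) had 143, 141, 153 and 149 RPKM in esc libraries, against 0.628, 1.32, 0.128 and 0.66 RPKM in OrgR libraries (log2 change 6.5 ± 0.19, limma adjusted p = 0.000464). Both were near 0 in OrgR libraries and well above it in esc libraries.

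The gene geko (18139402 to 18145418), named for a role in olfactory behaviour, lies next to them and had 93 ± 6.7 RPKM in esc and 10.9 ± 0.91 RPKM in OrgR (log2 change 2.98 ± 0.11, limma adjusted p = 0.000576). CG7341 and CG32195 rose by 0.82 and 0.81 on the log2 scale, but their spans overlap on the same strand, so that these values may share reads. On the far side of skl, CG32196 and CG4306 did not pass (log2 changes -0.13 and 0.02). AstC-R2, an allatostatin C receptor gene, rose at a low level (1.23 RPKM in esc, 0.60 RPKM in OrgR, log2 change 0.48, limma adjusted p = 0.033). AstC-R2 was tested in 22 alternatives and passed in 17, with log2 changes from -0.06 to 0.93. Between hid and skl, 12 other genes are listed, and the only one tested, CheA75a, did not pass (log2 change 0.43, limma adjusted p = 0.0986). CG7320, also between them, was under the filter and not tested. It had 0.688, 0.929, 0.684 and 0.849 RPKM in esc libraries, against 0.098, 0.127, 0.121 and 0.08 RPKM in OrgR libraries. All other genes listed between hid and skl had overlapping libraries, apart from the antagonists. In all, 15 of the 30 were at 0.001 RPKM in all 8 libraries, where 3839 of the 17321 genes in the table were. All of these 15 but Met75Ca were noncoding CR genes.

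**Figure D4:**
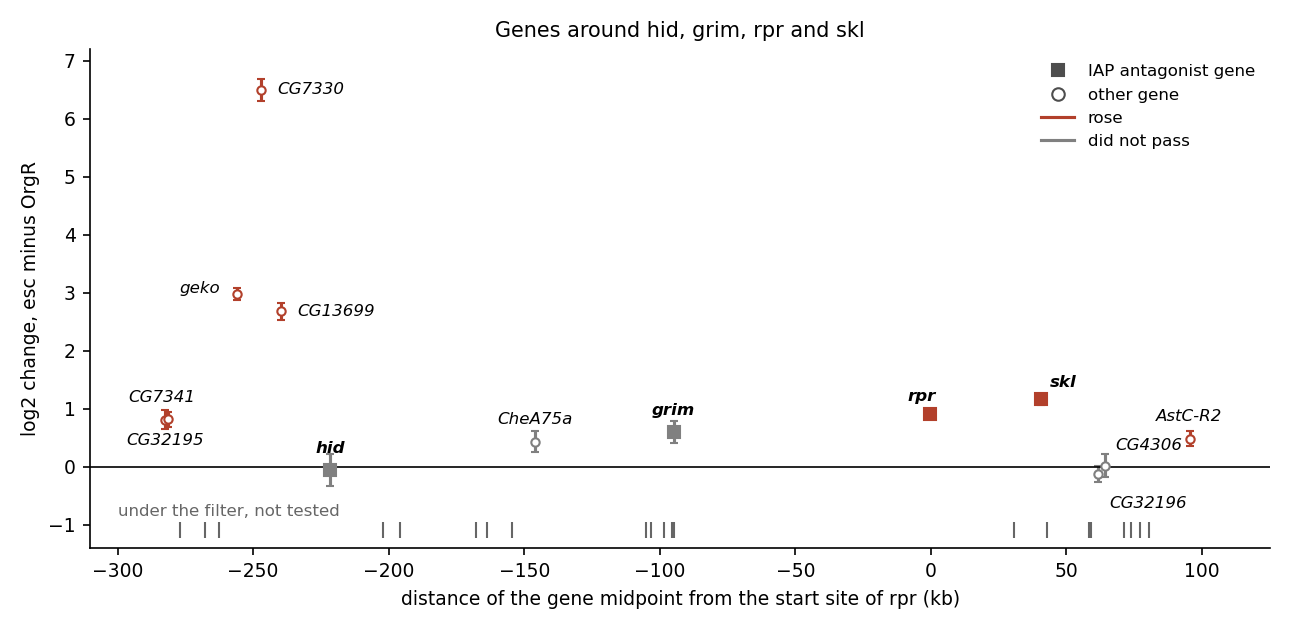
Log2 change (esc minus OrgR, with standard errors) of the tested genes around the antagonist cluster against the distance of each gene's midpoint from the start site of rpr, in kb. Filled squares are hid, grim, rpr and skl, open circles other genes, red marks those that rose, and ticks mark genes under the filter. CG7330, geko and CG13699, next to hid, reach 6.5, 2.98 and 2.68, and hid itself is at -0.06.

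Of the wider apoptosis machinery, 23 of 24 listed genes for other inhibitors, Bcl-2 proteins, caspases, cytochrome c and DNA degradation were tested, and 5 rose, 6 fell and 12 did not pass. Their median log2 change was -0.23, close to the -0.18 of all tested genes, and the 47.8% that changed is near the background of 52.5%. Under median-of-ratios scaling 1 gene of the list fell, where 9.71% of all genes did. The gene of the list that was not tested, Drep3, was under the filter. It had 0.655 RPKM in esc and 0.0643 RPKM in OrgR, and was higher in every esc library. The caspase gene Decay, a relative of the effector caspases, rose most among the caspases, with 111, 107, 119 and 113 RPKM in esc libraries, against 41.2, 38.5, 35.1 and 33.8 RPKM in OrgR libraries (log2 change 1.58 ± 0.11, limma adjusted p = 0.00204). It thus moved opposite to Dronc, Drice, Dcp-1 and Dredd. DNaseII, which digests the DNA of engulfed cells, rose to 58.9 ± 7.6 RPKM in esc, against 27.1 ± 0.60 RPKM in OrgR (log2 change 1.09 ± 0.12). Cyt-c-d, the cytochrome c used in caspase activation in spermatids, also rose (11.4 RPKM in esc, 1.48 RPKM in OrgR, log2 change 2.34). Cyt-c-p, the respiratory cytochrome c gene, rose by 0.91, and Jafrac2, a peroxiredoxin that binds Diap1, by 0.27.

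The falls in that list were led by Det (Deterin), the survivin homologue, with 16.6 ± 2.3 RPKM in esc and 31.5 ± 2.7 RPKM in OrgR (log2 change -0.89 ± 0.14, limma adjusted p = 0.0101). Ubr3 and eff, which act in the ubiquitin pathway around Diap1, followed at -0.54 and -0.51, and Debcl, a Bcl-2 family gene, morgue and Drep2 also fell. The other Bcl-2 gene, Buffy, had 8.34 RPKM in esc and 6.09 RPKM in OrgR and did not pass (adjusted p = 0.0865). The remaining inhibitors Diap2 and Bruce did not pass either (log2 changes -0.19 and -0.41). Of the other caspases, Strica and Damm were low, at 4.19 and 6 RPKM in esc and 5.28 and 5.66 RPKM in OrgR, and did not pass.

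Genes of stress and death receptor signalling upstream of the antagonists numbered 19, of which 1 rose, 6 fell and 12 did not pass, with a median log2 change of -0.24. The 31.6% that fell equal the share over all tested genes, 31.6%, and the 5.26% that rose compare with 20.9%. Under median-of-ratios scaling 3 rose and 2 fell, where 24.9% and 9.71% of all genes did. Xrp1, a stress-induced bZIP factor, was the gene that rose (267 ± 10 RPKM in esc, 172 ± 11 RPKM in OrgR, log2 change 0.63 ± 0.09, limma adjusted p = 0.00892). Traf4, an adaptor of JNK signalling, fell most (90.2 RPKM in esc, 157 RPKM in OrgR, log2 change -0.79), then lok, the Chk2 kinase of the DNA damage response (-0.63), and slpr, a JNK kinase kinase (-0.62). The p53 gene, whose product induces rpr after irradiation, had 16.1 ± 0.46 RPKM in esc and 19.7 ± 1.8 RPKM in OrgR and did not pass (log2 change -0.27, adjusted p = 0.0986). The TNF gene egr (log2 change 0.26, adjusted p = 0.0561) and the JNK target puc (0.00, adjusted p = 0.983) did not pass.

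Of 16 genes for the recognition and engulfment of dead cells, 9 fell, 7 did not pass and none rose by limma, also at an unadjusted p below 0.05. The 56.2% that fell compare with 31.6% of all tested genes, and the median log2 change was -0.43. Under median-of-ratios scaling 4 fell, where 9.71% of all genes did. The receptor gene NimC4 (simu), which glia and hemocytes use to take up corpses, fell most, with 153, 158, 146 and 141 RPKM in esc libraries, against 311, 304, 374 and 361 RPKM in OrgR libraries (log2 change -1.17 ± 0.12, limma adjusted p = 0.00451). Calr (calreticulin) fell by 0.99 and Ced-12, a Rac activator subunit, by 0.74 on the log2 scale. The receptor genes drpr and crq did not pass (log2 change -0.29 for each). Hemocyte markers moved in both directions beside this list. The hemocyte factor srp fell (log2 change -0.72), as did the crystal cell genes PPO1 (-1.36) and PPO2 (-1.47), while the matrix genes Col4a1, vkg and SPARC rose by 1.17, 1.37 and 1.10, and their part in the fall of the engulfment genes was not tested. NimC1, of the same hemocyte list, rose at a low level (1.66 RPKM in esc, 0.307 RPKM in OrgR, log2 change 1.03, limma adjusted p = 0.00533). The larval hemocyte markers eater and Hml were near 0 in both genotypes and were not tested. They had 0.0095 and 0.149 RPKM in esc and 0.001 and 0.05 RPKM in OrgR, and Hml was higher in every esc library. NimC4, crq, srp, gcm, pnt, grh, p53 and Xrp1 each stand in more than a single list used here.

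Of 23 factors known to act on the antagonist genes, 22 were tested, 3 rose, 8 fell and 11 did not pass. The shares that rose and fell, 13.6% and 36.4%, are near those over all tested genes, 20.9% and 31.6%. With median-of-ratios scaling 4 fell, where 9.71% of all genes did. Among the 3 that passed as rises, Abd-B, the Hox factor of the posterior segments, changed most. It had 327 ± 38 RPKM in esc and 57.1 ± 4.9 RPKM in OrgR (log2 change 2.50). Next came the ecdysone-induced gene Eip74EF (1.11) and Xrp1, which is counted in the stress list too. The factor br did not pass (log2 change 1.14, limma adjusted p = 0.0541), although it was higher in every esc library (8.06 RPKM in esc, 2.98 RPKM in OrgR). Apart from br and Dfd, the factors that did not pass had negative log2 changes. The Hox cofactors hth (-1.90) and exd (-0.81) fell furthest, then pnt (-0.80), the Ets activator of the EGF receptor pathway. Dfd, the Hox activator of rpr in the head, did not pass (17.3 RPKM in esc, 15.3 RPKM in OrgR, adjusted p = 0.299), nor did abd-A (adjusted p = 0.219), the Hox gene that triggers neuroblast death in the abdomen, or grh (adjusted p = 0.0686), which acts with Hox factors there.

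**Figure D5:**
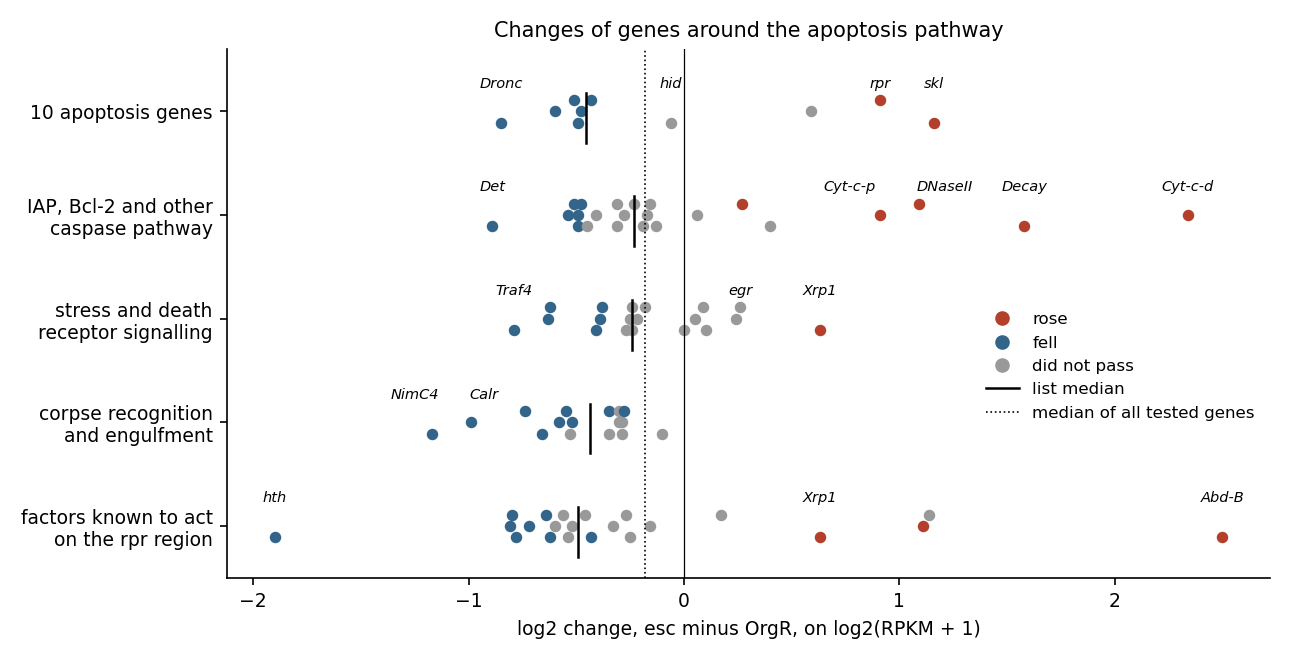
Log2 change (esc minus OrgR) of each tested gene in the 10 apoptosis genes and in 4 lists around them, with the median of each list as a black bar and that of all tested genes, -0.18, as a dotted line. Red points rose, blue points fell and grey points did not pass. The engulfment genes all lie below 0, with NimC4 lowest at -1.17, while Decay, DNaseII and Cyt-c-d stand out to the right among the other caspase pathway genes.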

How the data were processed

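The authors deposited an unfiltered table of linear RPKM values per gene and library; dm6 is the genome named in the submitters' processing notes, and the aligner, counter and gene models are not given in the sources used here. Libraries were unstranded paired reads of total RNA, per the labels' protocols. The value 0.001 stands for the floor. Total read numbers are not in the table; relative depth came from the commonest ratio of low values in 28 library pairs. Since libraries 1 and 2 of a set may be repeats of 1 pool, which the labels leave unstated, they were averaged on log2(RPKM + 1) and 2 set means per genotype compared with limma 3.58.1 in R 4.3.3 (lmFit, eBayes with trend, two-sided, Benjamini-Hochberg) for genes averaging 0.5 RPKM or more. Nothing says that sets were separate collections, so p-values rest on a spread that may be technical. RPKM means ± SD are over 2 set means. Fold changes on this scale understate those of low genes. Positions are 1-based, from Ensembl release 115 in dm6 coordinates; 16184 names matched. The fit was tested on simulated data. Named genes were the 10 members, tested genes within 50 kb of the cluster, up to 3 called genes with the largest rise and fall per list, and genes needed to say what a count holds; genes that did not pass were named for their roles, after their values were seen. Members and lists were chosen with earlier results of these data known. Alternatives covered pseudocount, filter, scaling, block, library handling and each left-out set and library.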

Additional observations from a re-analysis of the deposited data

How the results depend on the processing

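Over 23 alternatives, the calls of rpr, skl and Dronc held in each, and 2 or 3 of the 10 genes rose. The count of falling genes was 6, against 2 under median-of-ratios scaling, 1 with the set number as a replicate block, and 1 to 6 when a set or library was left out. Dronc is the gene that passed throughout; with the block, Diap1, Dark, Drice, Dcp-1 and Dredd had limma adjusted p-values from 0.052 to 0.0854, and from 0.0507 to 0.113 when 1 set was left out, where fewer samples remained and the single set left in a genotype was given the spread of the other. Over all genes, 5537 changed, against 3654 under median-of-ratios scaling and 2467 with the block, and 2071 to 5730 when a set or library was left out. The genes that fell numbered 3329, 1024 under median-of-ratios scaling and 899 with the block, and rises made up 39.9%, 72.0% and 63.6% of the changed genes. Of the 58 tested genes in the 3 pathway lists outside the 10 genes and the factors, 27 changed, where 52.5% of all tested genes did. The count was 16 under median-of-ratios scaling, 12 with the block, and 24 to 28 when 1 library was left out. With 8 libraries as separate samples 47 of the 58 changed, where 8006 of all 10547 tested genes did. Of the caspase pathway list 1 gene fell under median-of-ratios scaling, of the stress list 2, of the engulfment list 4 and of the factors 4. Under that scaling 9.71% of all genes fell. After quantile normalization 10 of the caspase pathway list fell, where 4004 of all genes did. The log2 change of hid turned to 0.16 under median-of-ratios scaling and ran from -0.43 to 0.32 when a set or library was left out, 0.0029 without esc set 2. The cause of these shifts was not tested. The deviations of same-numbered sets had a correlation of -0.37 over 7032 genes averaging 10 RPKM or more, and the labels do not say that numbers pair sets; with numbers crossed, chosen after seeing the data, 6717 genes changed, 3 of the 10 rose and 6 fell. Depth limits genes near the floor; the lowest value of the 10 genes was 12.6 RPKM, for hid.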

Other observations

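The profiles most like those of the antagonist genes over the 8 libraries were found among all tested genes by the root mean square difference of log2(RPKM + 1), each gene centred on its own mean. For rpr they were metro, with 34.6 ± 1.6 RPKM in esc and 18.5 ± 1.3 RPKM in OrgR (difference 0.045), and unc-13-4A (0.046), with 1.07 RPKM in esc and 0.086 RPKM in OrgR. For skl they were Unc-115b, with 159 ± 8.6 RPKM in esc and 69.6 ± 0.42 RPKM in OrgR (0.030), and axo (0.039), with 2.28 RPKM in esc and 0.526 RPKM in OrgR. For grim they were dnc, with 5.63 ± 1.4 RPKM in esc and 3.48 ± 0.61 RPKM in OrgR (0.040), and CG16779 (0.072), with 0.824 RPKM in esc and 0.205 RPKM in OrgR. At the low levels of unc-13-4A, axo and CG16779 the pseudocount of 1 shrinks the change, and their ratios of means, 12.4, 4.33 and 4.02, are unlike those of rpr, skl and grim, 1.90, 2.28 and 1.55. For hid, whose OrgR sets differed, they were CG9171, with 12.6 ± 1.1 RPKM in esc and 13.5 ± 5.7 RPKM in OrgR (0.049), and path (0.058), each SD over 2 sets. Among the 10 genes themselves, skl was the nearest to rpr (0.135) and Dredd the nearest to Diap1 (0.051). Both grim and hid had no near neighbour among them. The nearest to grim was rpr at 0.248, and the nearest to hid was Drice at 0.290.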
